A study of Mus musculus with 4 samples.

Results

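The 9 genes described here encode proteins that read or maintain heterochromatin, and they were taken by symbol from a table of 54838 Ensembl genes. They are Cbx1, Cbx3 and Cbx5 (the HP1 proteins), Mphosph8, Pphln1 and Morc2a (linked to the HUSH complex), and Smchd1, Atrx and Daxx. Each symbol matched a single row in all 4 libraries. Their RNA was compared between Hepa1-6 cells carrying an shRNA against Setdb1 (genotype label Setdb1 knockdown, 2 libraries) and Hepa1-6 cells carrying an shRNA named NC (genotype label Setdb1 wild type, 2 libraries, called the control). Hepa1-6 is a mouse hepatocellular carcinoma line. The design text speaks of subclones, and the labels do not say whether the libraries of a group came from separate cultures or subclones, so p-values speak only of how far these libraries scatter, and that scatter may be technical.

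HP1 proteins bind histone H3 methylated on lysine 9, the mark that the methyltransferase Setdb1 places, through a chromodomain, and pair through a chromoshadow domain. The HUSH complex, built from Mphosph8, Pphln1 and the scaffold Tasor (named Fam208a in these files), is known for silencing retroelements and recent insertions, and works with the ATPase Morc2a and with Setdb1. Atrx and Daxx together deposit the histone variant H3.3 at repeats and telomeres, and Smchd1 is a structural maintenance of chromosomes protein known from the inactive X chromosome and from imprinted and clustered genes.

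The libraries held 19615277 and 19568849 counts in the knockdown and 19600005 and 19513445 counts in the control. The mean fragment length implied by the files was 265.0 and 262.7 bases in the knockdown libraries, against 261.3 and 246.7 bases in the control libraries, so control 2 had the shortest fragments. Setdb1 itself had 10.96 and 8.59 CPM (counts scaled so that each library sums to the same total) in the knockdown libraries, against 51.2 and 59.4 CPM in the control libraries (log2 fold change -2.49, SE 0.182, edgeR adjusted p = 1.5e-04). Of 10 hepatocyte and hepatoma markers, 3 (Apoa1, Ttr and Serpina1a) were under 1 TPM in all libraries, while albumin stood at 855.7 and 731.7 TPM in the knockdown and 429.4 and 431.9 TPM in the control (TPM divides counts by transcript length and scales each library to the same sum). Albumin was higher in the knockdown (edgeR adjusted p = 0.00563), and the hepatocyte factor Hnf4a was lower, at 101.0 and 95.1 TPM in the knockdown and 165.5 and 168.6 TPM in the control (edgeR adjusted p = 0.0302). Markers of other liver cells were under 1 TPM everywhere in 4 of 6 for leukocytes, 5 of 5 for endothelium, 4 of 5 for stellate cells and fibroblasts and 1 of 5 for cholangiocytes. Some of these lists held abundant or called genes: the fibroblast marker Dcn had 1372 and 1345 TPM in the knockdown and 1227 and 1338 TPM in the control (edgeR adjusted p = 0.619), and the cholangiocyte marker Spp1 was lower, with 262.2 and 237.2 TPM in the knockdown and 366.1 and 405.95 TPM in the control (edgeR adjusted p = 0.0347). Epcam, another cholangiocyte marker, was higher, with 20.60 and 20.58 TPM in the knockdown and 11.14 and 9.30 TPM in the control (edgeR adjusted p = 0.00919). Col1a1, a fibroblast collagen, was higher at under 1 TPM in each library (edgeR adjusted p = 0.00652). The 2 leukocyte markers tested, Cd68 and Csf1r, leaned higher without a call. Cd68 had 15.13 and 12.25 TPM in the knockdown, against 7.96 and 8.02 TPM in the control (edgeR adjusted p = 0.0561). Csf1r had 1.44 and 2.60 TPM in the knockdown, against 1.07 and 0.37 TPM in the control (edgeR adjusted p = 0.0811). This lean was not particular to leukocyte markers. Endothelial Pecam1 (log2 fold change 1.88, edgeR adjusted p = 0.0593) also leaned higher. So did cholangiocyte Krt7 (0.80, edgeR adjusted p = 0.0585) and Krt19 (1.75, edgeR adjusted p = 0.118), while cholangiocyte Sox9 leaned lower (-0.37, edgeR adjusted p = 0.165). The part of these markers in the values below was not tested. In bulk libraries, fewer cells with a transcript and less RNA per cell cannot be told apart.

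The promoter windows of the HP1 genes and of Atrx are shown first, because Cbx3 was the most abundant of the 9 per length and Atrx lay furthest from its control level. They run from 250 bases before to 50 bases after a transcription start annotated by RefSeq (build GRCm38.p6), on the strand of the gene, with every CG dinucleotide in capitals. For Cbx3 and Cbx5 only the upstream start of the annotated pair is printed.
Cbx1, chr11:96788885-96789184, plus strand: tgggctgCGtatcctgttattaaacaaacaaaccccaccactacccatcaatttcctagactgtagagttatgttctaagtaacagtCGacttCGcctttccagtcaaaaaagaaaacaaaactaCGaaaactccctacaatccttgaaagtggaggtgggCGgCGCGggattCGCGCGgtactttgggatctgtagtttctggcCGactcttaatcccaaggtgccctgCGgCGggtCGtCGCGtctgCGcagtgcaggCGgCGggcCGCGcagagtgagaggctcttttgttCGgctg
Cbx3, chr6:51470366-51470665, plus strand: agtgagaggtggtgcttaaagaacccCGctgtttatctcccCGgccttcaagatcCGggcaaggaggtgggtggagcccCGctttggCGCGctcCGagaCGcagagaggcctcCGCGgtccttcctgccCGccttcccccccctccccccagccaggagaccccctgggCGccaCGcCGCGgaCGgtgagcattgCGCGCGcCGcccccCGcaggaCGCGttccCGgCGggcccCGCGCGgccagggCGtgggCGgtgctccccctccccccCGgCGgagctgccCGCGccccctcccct
Cbx5, chr15:103239803-103240102, minus strand: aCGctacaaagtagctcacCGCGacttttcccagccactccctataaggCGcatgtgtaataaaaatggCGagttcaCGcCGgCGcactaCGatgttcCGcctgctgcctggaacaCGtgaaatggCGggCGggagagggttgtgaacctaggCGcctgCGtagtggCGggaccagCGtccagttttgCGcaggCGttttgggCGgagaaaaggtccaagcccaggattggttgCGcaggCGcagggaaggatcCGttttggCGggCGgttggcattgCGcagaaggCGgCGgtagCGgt
Atrx, chrX:105929323-105929622, minus strand: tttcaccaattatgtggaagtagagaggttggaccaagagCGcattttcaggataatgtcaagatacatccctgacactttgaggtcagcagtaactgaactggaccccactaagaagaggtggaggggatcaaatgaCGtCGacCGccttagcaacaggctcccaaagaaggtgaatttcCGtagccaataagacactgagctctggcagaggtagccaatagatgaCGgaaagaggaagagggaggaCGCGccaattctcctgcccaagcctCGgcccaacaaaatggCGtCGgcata
These windows hold 22, 34, 29 and 11 CG dinucleotides for Cbx1, Cbx3, Cbx5 and Atrx. All 9 genes had a window in the table, 15 windows in all, and 14 of the 15 held more CG dinucleotides than the median of 7 over 32851 mouse windows. The exception was the downstream start of Morc2a, with 0, and the richest windows were the overlapping pair of Pphln1, with 53 and 52. On either strand, GGGCGG, the core of SP-family sites, was found in 10 of the 15 windows and in 35.7% of all windows. CCGGAAG, an ETS-family core, was found in 5 windows of 2 genes, Pphln1 and Daxx, and in 8.86% of all windows. CCAAT occurred in 5 windows (37.4% of all windows), the TATAAA box in 1 (13.6%), and the YY1 motif AAGATGGC in 0 (2.75%). Windows of the same gene overlap in Pphln1 and Daxx, so they are not independent counts, and a match describes letters and not a bound site.

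None of the 9 genes passed the test of knockdown against control, although all 9 had enough counts to be tested. By edgeR's quasi-likelihood test with Benjamini-Hochberg adjustment over 12821 genes, 0 of 9 were higher and 0 of 9 lower at an adjusted p under 0.05, where 5.96% of all tested genes were called (4.2% higher and 1.76% lower). At an unadjusted p under 0.05 there was 1 of 9, Atrx, against 21.3% of all tested genes, and DESeq2 also called 0 of the 9. That unadjusted count was 2 of 9 with limma on log2(TPM + 1), where 2508 of 12821 tested genes reached it. It was 3 of 9 in edgeR with transcript length and GC content corrected, where 3010 of 12821 tested genes reached it. In the main edgeR fit the log2 fold change was below 0 in 7 of 9, against 50.5% of all tested genes. Its median was -0.22 over the 9 genes and -0.0052 over all tested genes. In 4 of 9 (Cbx1, Cbx3, Morc2a and Atrx) both knockdown libraries had lower CPM than both controls, an arrangement seen in 26.5% of tested genes. In 0 of 9 were both knockdown libraries higher, as in 25.4% of tested genes. In TPM the knockdown libraries lay below both controls in 5 of 9, the same 4 genes and Daxx, and above both in 0 of 9, against 30.2% and 21.4% of tested genes.

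**Figure D1:**
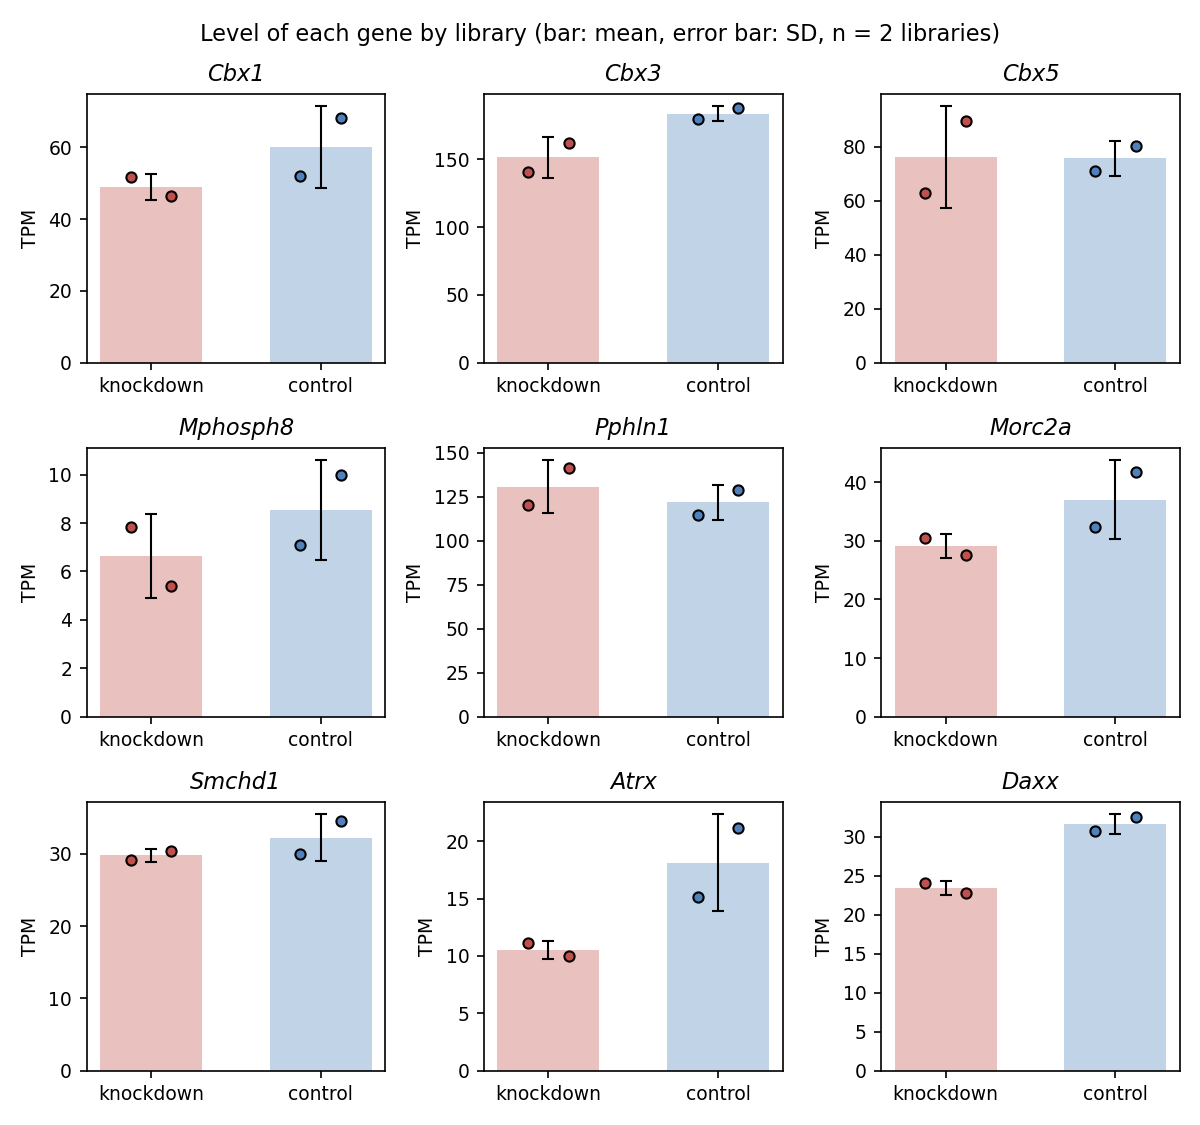
TPM (vertical axis, from 0) of the 9 genes in the knockdown libraries (red) and control libraries (blue), with replicate 1 on the left of each pair, bars at the mean and error bars of 1 SD over 2 libraries. The groups do not overlap for Cbx1, Cbx3, Morc2a, Atrx and Daxx, and overlap for the other 4 genes.

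**Figure D2:**
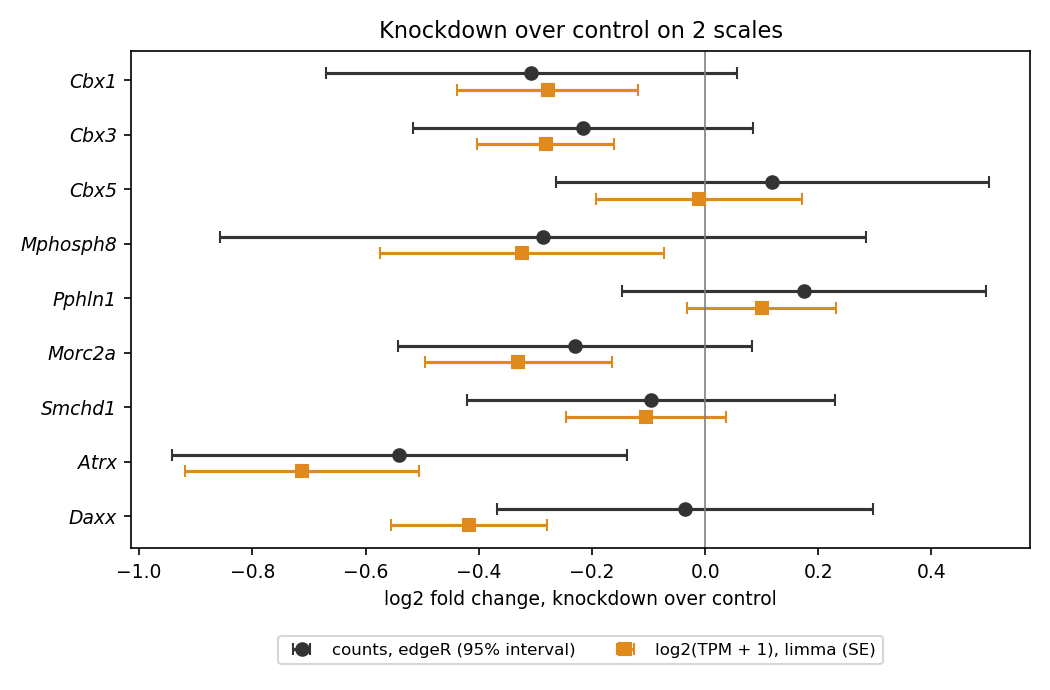
Log2 fold change of knockdown over control for the 9 genes, from counts in edgeR with its 95% interval (black) and from log2(TPM + 1) in limma with its SE (orange). The count interval leaves out 0 only for Atrx, at -0.94 to -0.14, and the scales differ most for Daxx, at -0.03 against -0.42.

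Among the HP1 genes, Cbx3, which encodes HP1 gamma, was the most abundant per length. It had 140.6 and 162.4 TPM in the knockdown libraries, against 180.1 and 187.7 TPM in the control libraries. Both knockdown libraries lay below both controls. Its log2 fold change on counts was -0.22 (SE 0.134, edgeR adjusted p = 0.392), an estimate of 86.1% of the control level with a 95% interval of 69.9% to 106%. It was -0.12 without knockdown 1 and -0.32 without knockdown 2. Its expected counts were not whole in any of the 4 libraries, so part of its reads was shared with other features. The files list 8 Cbx3 pseudogenes, of which 2 had counts, at most 51.9 in any library, against at least 3511 for Cbx3. Cbx3 (chromosome 6, 51470360 to 51483704, plus strand, GRCm38) overlapped no other annotated gene.

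Cbx5, which encodes HP1 alpha, was next. It had 62.8 and 89.5 TPM in the knockdown libraries, against 71.1 and 80.4 TPM in the control libraries. The controls lay between the knockdown libraries, which set the lowest and the highest value. The log2 fold change on counts was 0.12 (SE 0.171, edgeR adjusted p = 0.744; 95% interval 83.3% to 142% of control), and it was 0.34 without knockdown 1 and -0.14 without knockdown 2, so its sign differed with the library left out. Cbx5 (chromosome 15, 103191544 to 103239816, minus strand) has 4 annotated transcripts of 376 to 8803 bases, and its mean transcript length of 7277 to 7623 bases over the 4 libraries lay near the longest of them.

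Cbx1, which encodes HP1 beta, had 51.6 and 46.4 TPM in the knockdown libraries, against 52.1 and 68.1 TPM in the control libraries. The groups did not overlap, but knockdown 1 and control 1 lay close together and control 2 stood above the other libraries. Its log2 fold change on counts was -0.31 (SE 0.162, edgeR adjusted p = 0.313; 95% interval 62.9% to 104% of control). Without control 2 it was -0.12 (adjusted p = 0.820), and without control 1 it was -0.48 (adjusted p = 0.0836). Cbx1 lies on chromosome 11, 96789127 to 96808640, plus strand, and had whole counts in all libraries.

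The make-up of HP1 transcripts was alike in the 4 libraries in its order, Cbx3 above Cbx5 above Cbx1. Cbx3 made up 55.1% and 54.4% of the summed HP1 TPM in the knockdown libraries, against 59.4% and 55.8% in the control libraries. Cbx5 made up 24.6% and 30.0% in the knockdown libraries, against 23.5% and 23.9% in the control libraries. Cbx1 made up 20.2% and 15.6% in the knockdown libraries, against 17.2% and 20.2% in the control libraries. The shares of Cbx3 and Cbx5 did not overlap between the groups and those of Cbx1 did. No test was run on the shares, since 2 against 2 libraries allow no exact permutation p under 0.333. The shares of a library add up to the whole, so a lower Cbx3 share and a higher Cbx5 share are not separate observations. The mean difference, knockdown minus control, was 3.64 percentage points for Cbx5, and it was 0.957 points without knockdown 2. For Cbx3 it was -2.83 points, and it ranged from -4.60 points without control 2 to -1.05 points without control 1. For Cbx1 it was -0.82 points, and it ranged from -3.15 points without knockdown 1 to 1.52 points without knockdown 2, so its sign differed with the library left out. The sum of the 3 genes was 255.0 and 298.3 TPM in the knockdown libraries, against 303.3 and 336.1 TPM in the control libraries.

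**Figure D3:**
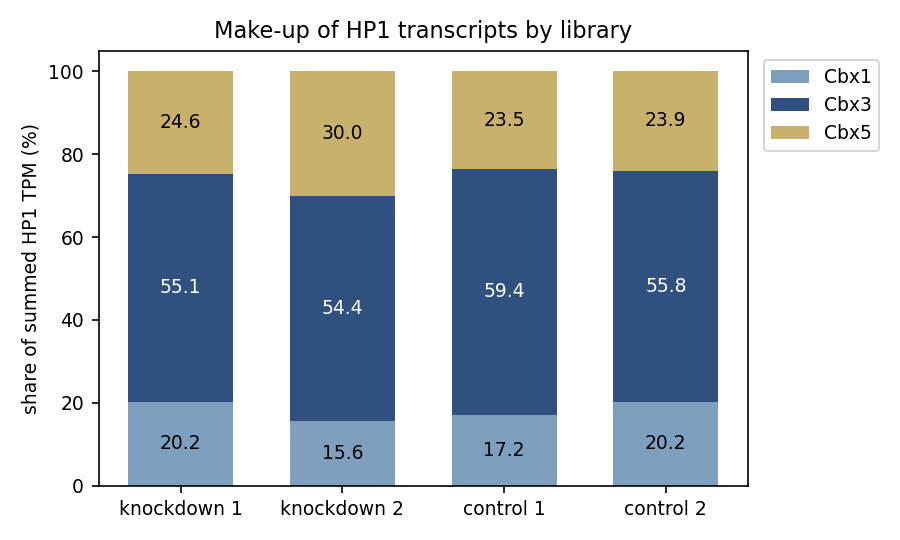
Share of Cbx1, Cbx3 and Cbx5 (vertical axis, percent of their summed TPM) in the 2 knockdown libraries and then the 2 control libraries. Cbx3 holds over 50% in each library, and knockdown 2 has the largest Cbx5 share, 30.0%, and the smallest Cbx1 share, 15.6%.

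The HUSH subunits stood at very different RNA levels. Mphosph8, whose protein carries the chromodomain of the complex, was the least abundant of the 9 genes, with 7.85 and 5.40 TPM in the knockdown libraries, against 7.08 and 9.99 TPM in the control libraries. Pphln1, which encodes periphilin, had 120.1 and 141.2 TPM in the knockdown libraries, against 114.5 and 128.8 TPM in the control libraries. The groups overlapped for both genes. The ratio of Pphln1 to Mphosph8 TPM was 15.3 and 26.2 in the knockdown libraries and 16.2 and 12.9 in the control libraries. Fam208a, the scaffold of the complex and not among the 9, stood near Mphosph8, at 5.48 and 5.37 TPM in the knockdown and 2.61 and 6.16 TPM in the control (edgeR adjusted p = 0.589).

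The log2 fold change of Mphosph8 on counts was -0.29 with the widest error of the 9 genes (SE 0.254, edgeR adjusted p = 0.571; 95% interval 55.2% to 122% of control). It rested on few counts, 219 and 166 in the knockdown and 183 and 291 in the control, none of them whole, and it was 0.070 without control 2. Mphosph8 (chromosome 14, 56668248 to 56697430, plus strand) overlaps the opposite-strand noncoding gene Gm16973 by 1151 bases, which had at most 17.3 counts in any library. For Pphln1 (chromosome 15, 93398350 to 93491510, plus strand) the value was 0.17 (SE 0.144, edgeR adjusted p = 0.535; 95% interval 90.3% to 141% of control). It was 0.016 without knockdown 2 and 0.32 without knockdown 1.

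Morc2a, a GHKL-type ATPase that compacts chromatin at HUSH targets, had 30.5 and 27.6 TPM in the knockdown libraries, against 32.3 and 41.8 TPM in the control libraries. The groups did not overlap, with control 2 above the other libraries. Its log2 fold change on counts was -0.23 (SE 0.139, edgeR adjusted p = 0.383; 95% interval 68.7% to 106% of control), and -0.12 without control 2. Morc2a (chromosome 11, 3649191 to 3690477, plus strand) starts within the opposite-strand noncoding gene Tug1, which it overlaps by 483 bases. Tug1 had 2585 and 3012 counts in the knockdown and 3470 and 2994 counts in the control (edgeR adjusted p = 0.489), and the strand setting of the counting is not given in the sources used here. Its counts were not whole in any library, while its near copy Morc2b was listed at 0 in all 4.

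Smchd1 had 29.2 and 30.5 TPM in the knockdown libraries, against 29.95 and 34.5 TPM in the control libraries. Its groups overlapped, and its log2 fold change on counts was -0.10 (SE 0.145, edgeR adjusted p = 0.758; 95% interval 74.7% to 117% of control). It was 0.056 without control 2. Smchd1 (chromosome 17, 71344489 to 71475343, minus strand) was the only one of the 9 genes with position-named loci in its span. Both loci were listed at 0 in all libraries.

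Atrx, a SWI/SNF-like remodeller, lay furthest from its control level of the 9 genes. It had 11.09 and 10 TPM in the knockdown libraries, against 15.15 and 21.11 TPM in the control libraries. These values also depend on the deposited length, which was greater for Atrx in the knockdown, as given below. On log2(TPM + 1) its log2 fold change was -0.71 (SE 0.206, limma adjusted p = 0.136), further from 0 than on counts. Atrx lies on chromosome X, 105797615 to 105929403, minus strand. In counts its values were 974 and 811 in the knockdown, against 1100 and 1519 in the control. Both knockdown libraries lay below both controls, and the controls differed from each other by more than the nearest knockdown and control libraries did. The log2 fold change on counts was -0.54 (SE 0.179), an estimate of 68.8% of the control level with a 95% interval of 52.1% to 90.8%, and it did not pass adjustment (edgeR unadjusted p = 0.0136, adjusted p = 0.117). The values without each library differed: -0.75 without control 1 (adjusted p = 0.00848) and -0.67 without knockdown 1 (adjusted p = 0.0340), but -0.30 without control 2 (adjusted p = 0.433) and -0.42 without knockdown 2 (adjusted p = 0.354).

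Long transcripts as a whole leaned the same way as Atrx. Over the 1294 tested genes with a mean transcript length of at least 5000 bases the median log2 fold change was -0.08, and 59.0% were below 0. Their median log2 deviation from the mean of the 4 libraries was -0.02 and -0.05 in the knockdown libraries, against 0.0074 and 0.070 in the control libraries. For the 3209 genes under 1500 bases the median log2 fold change was 0.02. An alternative that corrects transcript length and GC content in each library was added after the data had been seen. With it Atrx was at -0.50 (edgeR adjusted p = 0.109), beside -0.54 without it. Some of the 9 genes moved more than Atrx, away from 0. Cbx1 went from -0.31 to -0.39, Cbx3 from -0.22 to -0.32 and Mphosph8 from -0.29 to -0.39. Cbx5 went from 0.12 to 0.21 and Daxx from -0.03 to -0.14. Pphln1, Morc2a and Smchd1 moved toward 0, as Atrx did, and 0 of the 9 were called. The correction takes out only the mean trend of each library, so it cannot decide on a length effect particular to Atrx. The part of length in the Atrx value was not tested.

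Daxx, the H3.3 chaperone that partners Atrx, gave different answers on the count and the length-scaled values. Its counts were 654 and 686 in the knockdown libraries, against 702 and 682 in the control libraries, and the groups overlapped. Its TPM was 24.1 and 22.8 in the knockdown libraries, against 30.7 and 32.5 in the control libraries, and the groups did not overlap. The log2 fold change was -0.03 on counts (SE 0.148, edgeR adjusted p = 0.927; 95% interval 77.5% to 123% of control) and -0.42 on log2(TPM + 1) (SE 0.137, limma adjusted p = 0.172). TPM divides counts by effective length, and the deposited length of Daxx was greater in the knockdown, as described next. Daxx lies on chromosome 17, 33909414 to 33915590, plus strand, and the ratio of Daxx to Atrx TPM was 2.17 and 2.28 in the knockdown and 2.03 and 1.54 in the control.

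The deposited length of a gene is the mean of its transcripts weighted by their estimated abundance, so it moves with the mix of transcripts. No gene passed limma's test on log2 length (0 of 10238 genes, a share of 0%, with 756 or 7.38% at an unadjusted p under 0.05), and so 0 of the 9 did. With the spread modelled as a function of mean CPM it also called 0, with 760 at an unadjusted p under 0.05. At an unadjusted p under 0.05 there were 3 of 9, Daxx, Atrx and Cbx1, but 0 of 9 without control 2 and 0 to 2 over all 4 omissions of a library. The length of Daxx was 1962 and 2151 bases in the knockdown libraries, against 1732 and 1625 bases in the control libraries (log2 ratio 0.29, SE 0.0692, limma adjusted p = 0.659). Of the 10 annotated Daxx transcripts, those coding for protein and longer than the rest are Daxx-201 and Daxx-202, of 2581 and 2673 bases, and all others are at most 788 bases. The knockdown values thus lay nearer to the long pair than the control values did.

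The length of Atrx was 5750 and 5356 bases in the knockdown libraries, against 4934 and 4980 bases in the control libraries (log2 ratio 0.16, SE 0.0451, limma adjusted p = 0.659). Atrx has 27 annotated transcripts of 468 to 10275 bases, the longest being the coding transcript Atrx-202. For Cbx1 it was 1648 and 1635 bases in the knockdown, against 1702 and 1721 bases in the control (log2 ratio -0.06, SE 0.0122, limma adjusted p = 0.612). Cbx5 too was longer in both knockdown libraries, at 7623 and 7454 bases, against 7339 and 7277 bases in the control (log2 ratio 0.04, limma adjusted p = 0.740). Lengths were thus separated upward in 3 of 9 and downward in 1 of 9, against 19% and 17.1% of the genes tested for length. For the remaining 5 genes the groups overlapped. The transcripts behind a mean length cannot be told from gene-level values.

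**Figure D4:**
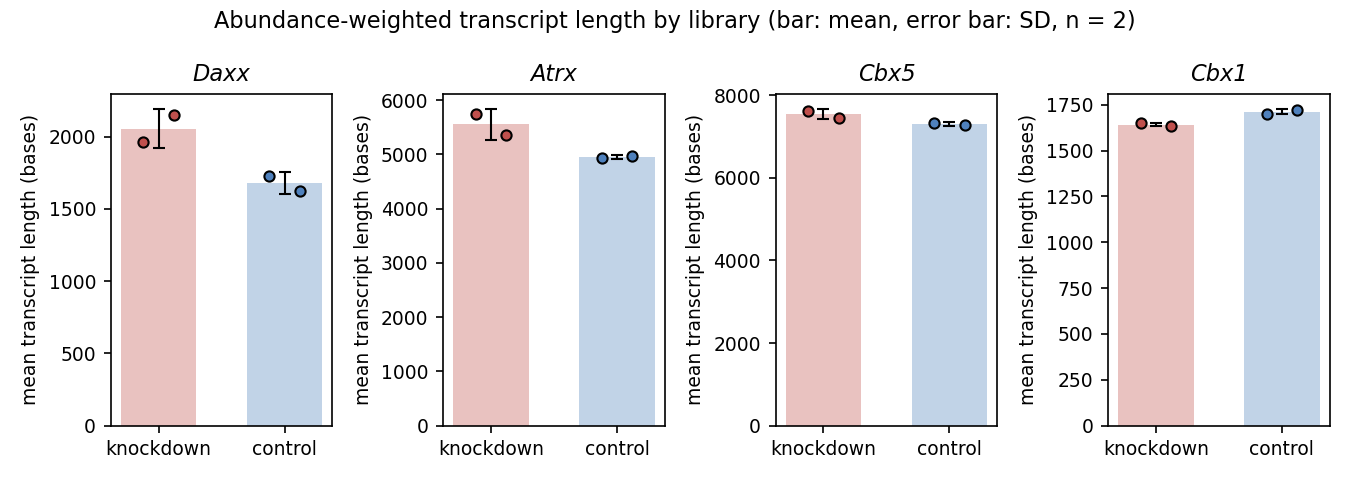
Abundance-weighted mean transcript length in bases (vertical axis, from 0) of Daxx, Atrx, Cbx5 and Cbx1 in the knockdown (red) and control (blue) libraries, with replicate 1 on the left of each pair, bars at the mean and error bars of 1 SD over 2 libraries. Daxx had 1962 and 2151 bases in the knockdown against 1732 and 1625 bases in the control, the largest log2 ratio of the 4 genes (0.29), while in bases Atrx differed more, and none of the 4 passed adjustment.

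In order of TPM the 9 genes stood nearly alike in both groups. In the knockdown the means were 151.5 ± 15.4 TPM for Cbx3, 130.7 ± 14.9 for Pphln1, 76.2 ± 18.9 for Cbx5, 49.0 ± 3.66 for Cbx1, 29.8 ± 0.898 for Smchd1, 29.0 ± 2.03 for Morc2a, 23.4 ± 0.891 for Daxx, 10.5 ± 0.771 for Atrx and 6.62 ± 1.73 for Mphosph8 (SD, n = 2). In the control they were 183.9 ± 5.35 TPM for Cbx3, 121.7 ± 10.1 for Pphln1, 75.8 ± 6.55 for Cbx5, 60.1 ± 11.3 for Cbx1, 37.0 ± 6.70 for Morc2a, 32.2 ± 3.25 for Smchd1, 31.6 ± 1.28 for Daxx, 18.1 ± 4.21 for Atrx and 8.54 ± 2.06 for Mphosph8 (SD, n = 2). Neighbours whose libraries overlapped were Cbx3 with Pphln1 and Smchd1 with Morc2a in the knockdown, and Morc2a with Smchd1 and Smchd1 with Daxx in the control. By mean TPM over the 4 libraries Cbx3 ranked above 93.2% and Mphosph8 above 35.7% of the tested genes.

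Other genes of these pathways were read from 9 lists, which added 58 genes to the 9. Of these, 55 were tested, with 1 higher, 2 lower and 52 neither, beside 4.2% higher and 1.76% lower over all tested genes, and their median log2 fold change was -0.02. The lower genes include Setdb1, the target of the shRNA. Besides Setdb1, the lower gene was Morc4, an ATPase of the same family as Morc2a. It had 5.37 and 3.51 TPM in the knockdown libraries, against 7.67 and 8.44 TPM in the control libraries, and both knockdown libraries lay below both controls. On counts the change came to -0.91 log2 units with an SE of 0.221 (edgeR adjusted p = 0.0428), and the call ended without knockdown 2 (adjusted p = 0.187), without control 2 (adjusted p = 0.0539) and on log2(TPM + 1) (adjusted p = 0.147). The higher gene was Atf7ip, the cofactor that stabilises Setdb1, at 39.3 and 29.6 TPM in the knockdown, against 16.7 and 20.5 TPM in the control (log2 fold change 1.09, SE 0.166, edgeR adjusted p = 0.00554; adjusted p = 0.0743 on log2(TPM + 1)).

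By list, the HUSH complex and its partners had 1 higher (Atf7ip) and 1 lower (Setdb1) of 7 tested, and the other MORC genes 1 lower (Morc4) of 3. The lists without a call were Atrx and H3.3 deposition (0 of 10), HP1 partners such as Trim28 and Chaf1a (0 of 16), Polycomb chromobox genes (0 of 4), chromodomain Y-like genes (0 of 3), PML body genes (0 of 9), Smchd1 with its partner Lrif1 (0 of 2) and remodelling and lamina genes (0 of 10). Trim28, the corepressor that brings Setdb1 to zinc finger proteins, had 297.5 and 290.5 TPM in the knockdown and 342.2 and 305.0 TPM in the control (edgeR adjusted p = 0.692). Among the genes for H3.3 itself, H3f3b had 492.4 and 534.1 TPM in the knockdown and 784.9 and 739.4 TPM in the control (log2 fold change -0.48, edgeR adjusted p = 0.0823), and H3f3a had 598.4 and 603.3 TPM in the knockdown and 598.2 and 611.6 TPM in the control. Of 14 proliferation markers 0 were called and 7 had a log2 fold change below 0. Their summed levels were 1976 and 2059 TPM in the knockdown and 2161 and 2132 TPM in the control. The sum hides uneven members. Mki67 had 17.09 and 4.45 TPM in the knockdown, against 17.01 and 30.21 TPM in the control (log2 fold change -1.06, SE 0.480, edgeR adjusted p = 0.241).

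**Figure D5:**
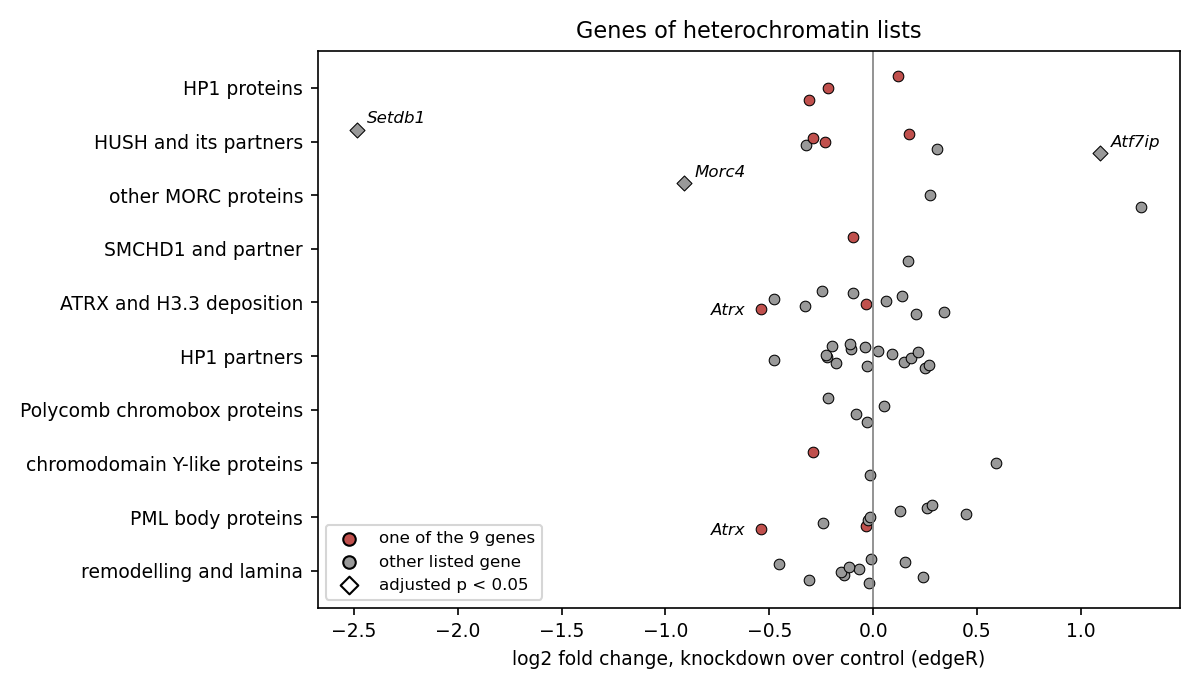
Log2 fold change of knockdown over control (horizontal axis, edgeR) for the tested genes of 10 lists, with the 9 genes in red, other listed genes in grey, and diamonds for an adjusted p under 0.05. The diamonds are Setdb1 (-2.49), Morc4 (-0.91) and Atf7ip (1.09), and Atrx and Daxx appear in a pair of lists.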

How the data were processed

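RNA was taken as total RNA and libraries were made with a directional kit, per the labels' protocols. Per the submitters' processing notes the tools were RSEM, STAR, FastQC and DESeq2, on mm10 and GRCm38, without versions. Annotation release, read filters and strand setting: not given in the sources used here. The deposited expected counts, per the file headers RSEM's, divide reads that fit several features among them. The deposited TPM values are scaled by effective length. FPKM columns, deposited beside them, did not enter any result. The deposited length and effective length are in bases.

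Expected counts were rounded and tested with edgeR 4.0.16 in R 4.3.3 (TMM, filterByExpr, quasi-likelihood F-test with the group alone), which left 12821 of 54838 genes, and adjusted by Benjamini-Hochberg with a threshold of 0.05. Library sizes were sums over all 115821 rows, including 60983 position-named loci, and 1 CPM is about 19.5 to 19.6 counts. SEs come from the F statistic. Log2 length was tested with limma 3.58.1 over 10238 genes whose length differed between libraries by more than 0.005 bases. Libraries of a group differed beyond counting noise (mean chi-square of a gene 23.6 in the knockdown and 26.0 in the control), so none was counted as a second deposit of another library; this does not show that they came from separate cultures. GENCODE M21 (GRCm38) gave coordinates and transcripts, and every transcript listed for the 9 genes was in it. Promoter sequences are RefSeq's. The tests were tested on simulated data. The 9 genes and the lists were chosen with earlier results of these data known. Named are the 9 genes, Setdb1 and called genes of the lists (at most 4 a list). Genes named besides these, such as Fam208a, Tug1, Trim28 and H3f3b, were chosen after their values were seen. The rule that names genes of like pattern applied to called members and so named none. Alternatives were DESeq2 1.42.0, its size factors, other filters, limma on log2(TPM + 1) and log2(TPM + 0.1), leaving out mitochondrially encoded genes or each library, genes with loci, and the replicate number as a block.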

Additional observations from a re-analysis of the deposited data

How the results depend on the processing

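Across 16 alternatives Cbx1, Cbx3, Morc2a and Atrx kept a negative and Pphln1 a positive log2 fold change. The genes called, 764 in all, numbered 0 without a filter on low counts (3379 at an unadjusted p under 0.05 in edgeR, and 896 called by DESeq2 with the filter), 334 on log2(TPM + 1), 327 on log2(TPM + 0.1), and 740 to 1677 without single libraries. Of the 9 genes, 0 or 1 were called without single libraries, the 1 being Atrx. Cbx5 was at -0.011 on log2(TPM + 1) and -0.012 on log2(TPM + 0.1). Without single libraries Cbx5 ranged from -0.14 to 0.34, Daxx from -0.075 to 0.0048, Mphosph8 from -0.57 to 0.070 and Smchd1 from -0.24 to 0.056. The log2 length ratio with effective lengths was -0.0038 for Cbx3 and -0.00087 for Pphln1. Without single libraries that ratio ranged from -0.0062 to 0.015 for Cbx3, -0.042 to 0.12 for Mphosph8, -0.030 to 0.039 for Pphln1, -0.0032 to 0.097 for Morc2a and -0.11 to 0.024 for Smchd1. The cause was not tested.

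The replicate numbers are no stated pairing. The deviations of same-numbered libraries from their group means were weakly and negatively correlated across genes (correlation -0.183). With the replicate number as a block 862 genes and 0 of the 9 were called, with Atrx at an adjusted p of 0.118. Crossing the numbers, which was chosen after seeing the data, gave 2339 called genes, 1 of the 9 (Atrx) among them. With 2 libraries a group, changes as small as those estimated for the 9 genes may be missed.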
